A study of Mus musculus with 2 samples.

Results

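The SRCAP complex is a chromatin remodeller built around the ATPase SRCAP, and it replaces histone H2A with the variant H2A.Z in nucleosomes next to transcription start sites (TSS). Peaks of SRCAP itself were described here at the genes that encode the complex. The 9 genes were a fixed list of subunits (Srcap, Ruvbl1, Ruvbl2, Actl6a, Actr6, Dmap1, Vps72, Yeats4 and Znhit1), which are 9 of 21951 protein-coding genes in GENCODE vM21 on GRCm38. A peak was taken when its midpoint lay from 1000 bp upstream to 500 bp downstream of any TSS of the gene (the promoter window), inside the gene, or within 20 kb of it. This gave 17 of the 28718 peaks found with the GFP antibody and 20 of the 28167 peaks found with the SRCAP antibody.

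CUT&RUN, in which an antibody-tethered nuclease cuts out the DNA next to a bound protein, had been run on SYAT mouse embryonic stem cells (mESCs), with 1 library per antibody. For each library 100000 cells were used, fixed in 0.1% formaldehyde for 5 min. Both libraries share the same cells: a CGR8-derived line, grown from 1 homozygous clone, with YPet-AID (a yellow fluorescent protein and an auxin-inducible degron) knocked in at the 3′ end of both Srcap alleles and with a lentiviral OsTir1 receptor driven by the EF1a promoter. SRCAP was reached through its YPet tag by the GFP antibody (ab290) and directly by the SRCAP antibody (ESL-103). The labels give no treatment for either library, the study describes control SYAT cells kept in auxinole to prevent loss of SRCAP, and the methods name the GFP antibody for CUT&Tag rather than CUT&RUN, so the assay of that library rests on its label. There were no replicates, so no difference below was tested. The lists hold no read counts and the depth is unknown. Intervals cover counting error only. A peak list records binding and not expression. Of 6 genes that mark mESCs only Zfp42 had a promoter peak, in both lists, against 35.0% (GFP) and 35.6% (SRCAP) of all protein-coding genes. Pou5f1, Sox2, Nanog, Esrrb and Klf4 had none in the promoter window. Their nearest peaks lay 1295 to 3514 bp (GFP) and 2484 to 12009 bp (SRCAP) from a TSS.

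In the complex, RUVBL1 and RUVBL2 are AAA+ ATPases that form a ring, and ACTL6A and ACTR6 are actin-related proteins. VPS72 (YL1) and ZNHIT1 take part in handling H2A.Z, YEATS4 (GAS41) reads acylated histone lysines, and DMAP1 is a scaffold subunit. RUVBL1, RUVBL2, ACTL6A, DMAP1, VPS72 and YEATS4 are also subunits of the TIP60-p400 complex, another remodeller that deposits H2A.Z and acetylates histones, and RUVBL1, RUVBL2 and ACTL6A belong to INO80 as well.

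The sequences under these peaks are shown first for the members on which the results turn, to set bound promoters beside promoters that lack a peak. They were read from the GRCm38.p6 assembly, 5′ to 3′ on the strand of the gene, and leave out annotated UTRs. Capitals mark exact matches, on either strand, to short words recognised by well-known promoter factors. The first stretch is where both Srcap promoter peaks overlap, at chr7:127511808-127511932 on the plus strand, and its capitals are the word ACTACAANT, one part of the ZNF143 motif.
Srcap: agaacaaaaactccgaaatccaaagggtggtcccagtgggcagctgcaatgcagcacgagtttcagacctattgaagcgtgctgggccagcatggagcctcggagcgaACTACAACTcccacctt
The next is the part of the Ruvbl1 overlap that lies upstream of the gene, at chr6:88465251-88465408 on the plus strand, with 2 CCAAT boxes (NFY) in capitals.
Ruvbl1: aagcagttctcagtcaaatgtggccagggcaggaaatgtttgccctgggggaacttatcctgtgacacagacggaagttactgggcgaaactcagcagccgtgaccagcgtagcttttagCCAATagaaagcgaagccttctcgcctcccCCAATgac
The stretch between a Ruvbl2 TSS and the divergent start of Gys1, at chr7:45434710-45434843 on the minus strand, lies under the SRCAP peak and not the GFP peak. It lies inside the annotated Ruvbl2 gene, downstream of the most upstream Ruvbl2 TSS. It has 2 CCAAT boxes, which read ATTGG on this strand, and a GC box (GGGCGG, SP and KLF factors).
Ruvbl2: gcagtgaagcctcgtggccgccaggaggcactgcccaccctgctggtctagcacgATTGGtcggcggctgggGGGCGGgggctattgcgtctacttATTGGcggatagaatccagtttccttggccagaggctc
Upstream of Actr6, at chr10:89732296-89732409 on the minus strand, the SRCAP peak covers an ETS word (CCGGAAGT).
Actr6: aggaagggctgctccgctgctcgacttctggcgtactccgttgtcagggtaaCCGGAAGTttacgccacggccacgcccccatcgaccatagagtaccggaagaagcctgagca
The overlap of both Yeats4 promoter peaks, at chr10:117224570-117224725 on the minus strand, holds none of the words searched.
Yeats4: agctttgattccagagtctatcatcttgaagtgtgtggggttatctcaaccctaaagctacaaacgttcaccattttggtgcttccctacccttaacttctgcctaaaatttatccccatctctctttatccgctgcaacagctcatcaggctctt
The last pair are promoters that lack one or both peaks. Actl6a, at chr3:32708296-32708506 on the plus strand, has 2 GC boxes (CCGCCC on this strand) and lies just upstream of a peak found with the GFP antibody only.
Actl6a: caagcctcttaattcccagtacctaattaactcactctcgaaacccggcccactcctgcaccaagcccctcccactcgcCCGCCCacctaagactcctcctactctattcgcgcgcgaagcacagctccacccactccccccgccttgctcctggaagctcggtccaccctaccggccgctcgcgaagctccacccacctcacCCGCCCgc
Dmap1, at chr4:117682274-117682475 on the minus strand, had a peak with neither antibody, and it carries the same ETS word as Actr6.
Dmap1: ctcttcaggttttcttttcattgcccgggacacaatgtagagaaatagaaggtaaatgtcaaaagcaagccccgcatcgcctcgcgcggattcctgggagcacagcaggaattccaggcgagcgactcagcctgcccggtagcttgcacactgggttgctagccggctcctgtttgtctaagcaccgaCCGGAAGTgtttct

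Most subunit genes had a SRCAP peak at their own promoter. With the GFP antibody 8 of the 9 genes had a promoter peak (88.9%, Wilson 95% interval 56.5 to 98.0), all but Dmap1, against 35.0% of all protein-coding genes. With the SRCAP antibody 7 of 9 had one (77.8%, 45.3 to 93.7), all but Dmap1 and Actl6a, against 35.6%. The same 7 genes had promoter peaks of both antibodies that overlapped, where 25.6% of all protein-coding genes did. The lower bounds of these intervals lay above the shares over all genes. The intervals hold no spread between libraries and the 9 genes are a fixed list, so the difference was not tested. With only the peaks that reached the median score of 47, 2 genes (Ruvbl1 and Znhit1) kept overlapping peaks, against 15.6% of all protein-coding genes, because one peak of the pair scored lower at the other 5.

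Genes with more annotated starts or with CpG-rich promoters have peaks more often, and most subunit genes have both features, with a median of 6 annotated TSSs against 3 over all protein-coding genes. Among the genes with at least 2 TSSs, the fewest of any member, 40.7% carried a GFP antibody peak at the promoter, 41.3% a SRCAP antibody peak and 30.0% overlapping peaks of both. Among the genes whose promoter had an observed over expected CpG ratio of at least 0.6, these shares were 53.5%, 54.6% and 40.5%. Among the members, Ruvbl2 fell below that ratio (0.565), and Vps72 was left out because it had no matched promoter sequence. Of the 7 members in that class, 6 carried a GFP antibody peak (interval 48.7 to 97.4%) and 5 a SRCAP antibody peak (35.9 to 91.8%), and the same 5 had overlapping peaks. Each interval holds the share over all CpG-rich genes, and a difference of these 7 genes from CpG-rich promoters was not tested. Both of these comparison sets were chosen after the data were seen.

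**Figure D1:**
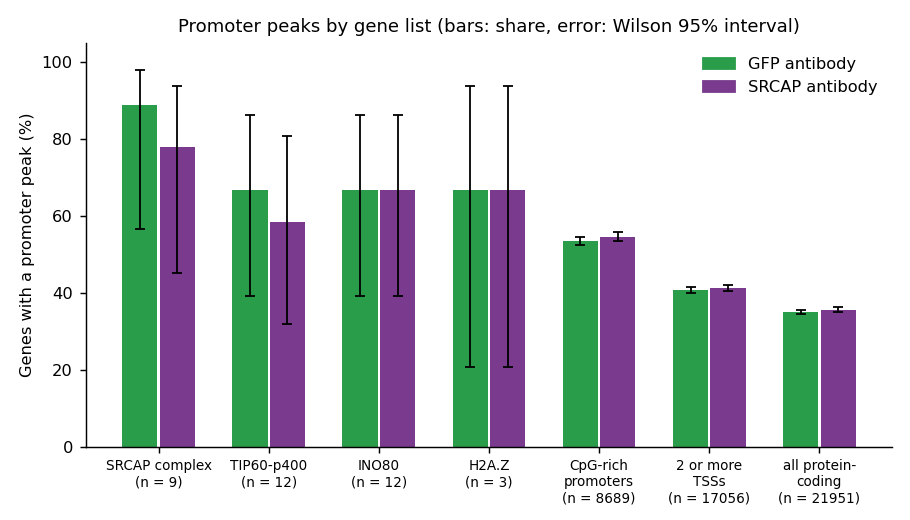
Share of genes with a promoter peak (y axis, %), with Wilson 95% intervals. The lists are the SRCAP complex, the genes of TIP60-p400 or INO80 that are not members, the H2A.Z genes and 3 sets of protein-coding genes. The SRCAP complex stood at 88.9% (GFP antibody, green) and 77.8% (SRCAP antibody, purple), against 35.0% and 35.6% of all protein-coding genes, and the intervals of the 4 short lists overlap each other.

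The catalytic subunit gene, Srcap (chr7:127511983-127561219, plus strand, 11 TSSs), had 1 promoter peak in each list. The GFP peak was 769 bp wide, scored 81 and lay with its midpoint 435 bp upstream of the TSS, at the 74.8th percentile of promoter peaks in its list. The SRCAP peak was 174 bp wide, scored 26, lay 89 bp upstream and was at the 11.6th percentile. The score is the authors' own value per peak, with a median of 47 and a minimum of 13 in both lists, and it was compared only within a list. The GFP peak at Srcap was thus above most promoter peaks of its list while the SRCAP peak was among the weakest, and the 125 bp they share are the downstream end of the GFP peak and the upstream end of the SRCAP peak. Both midpoints fall in an exon of the antisense transcript 1700008J07Rik. Neither list had a peak inside the gene or at its 3′ end, where the tag had been inserted. The next peaks were centred 11939 and 12062 bp past the gene end, at chr7:127572916-127573400 for the GFP antibody (score 238) and chr7:127573136-127573426 for the SRCAP antibody (score 192), in the promoters of Phkg2, which encodes a phosphorylase kinase subunit, and the antisense gene Gm28198. They stood at percentiles 97.7 and 96.2 of the promoter peaks in their lists, far above the peaks of Srcap itself.

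Both AAA+ ATPase genes had peaks of each antibody in their promoter windows. Ruvbl1 (chr6:88465409-88497572, plus strand) had a GFP peak of score 61 centred 154 bp downstream of a TSS (percentile 59.8) and a SRCAP peak of score 50 centred 100 bp upstream (percentile 45.7). It was also the only member with peaks inside the gene beyond the promoter windows, 1 intronic peak for each antibody at scores 34 and 29. They lay at different places, and neither overlapped a peak of the other list. Ruvbl2 (chr7:45421760-45438096, minus strand) shares a promoter with Gys1, the glycogen synthase gene, which starts 135 bp from a Ruvbl2 TSS on the other strand. The peaks there scored 58 with the GFP antibody (percentile 56.5) and 46 with the SRCAP antibody (percentile 39.3), so they cannot be assigned to one of the genes. A further SRCAP antibody peak, with the higher score of 73 (percentile 66.2), lay 129 bp downstream of the most upstream Ruvbl2 TSS, within introns of Ruvbl2 and Gys1, and the nearest GFP peak was 3182 bp away.

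Of the actin-related subunit genes, Actr6 had peaks of both antibodies and Actl6a a GFP peak alone. Actl6a (chr3:32706298-32726973, plus strand) had a GFP peak of score 54 centred 14 bp upstream of a TSS (percentile 52.3). The nearest SRCAP antibody peak was 27597 bp from it, in the promoters of Mrpl47 and Ndufb5, mitochondrial ribosome and respiratory chain genes, where it scored 86 and overlapped a GFP peak of score 74. Actr6 (chr10:89711971-89732295, minus strand) had 1 peak in each list and no other within 20 kb. Its GFP peak scored 38 (percentile 29.6) and its SRCAP peak 47 (percentile 42.0). The SRCAP midpoint lay 4 bp downstream of the protein-coding TSS. The GFP midpoint lay 89 bp downstream of that TSS and 39 bp downstream of the TSS of a noncoding transcript.

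Dmap1 (chr4:117674681-117682273, minus strand) was the member without a promoter peak in either list. The nearest GFP peak to any of its TSSs was 44864 bp away. The nearest SRCAP antibody peak was 23205 bp away, in an intron of the neighbouring gene Eri3, with a score of 23. The lists hold only peaks that passed the authors' caller, so binding below that threshold was not detectable here.

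The genes of the H2A.Z-handling subunits had overlapping peaks close to the TSS. At Vps72 (chr3:95111022-95123051, plus strand) the order of the antibodies was the opposite of that at Srcap, with a GFP peak of score 21 (percentile 3.38) and a SRCAP peak of score 56 (percentile 52.3). Their midpoints lay 7 bp upstream and 51 bp downstream of a TSS. At Znhit1 (chr5:136982164-136988021, minus strand) the GFP peak scored 54 and the SRCAP peak 53, at percentiles 52.3 and 49.2, the closest match of any member. The collagen-modifying enzyme gene Plod3 starts 32 bp from a Znhit1 TSS on the other strand and shares these peaks.

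The histone reader gene Yeats4 (chr10:117215221-117224507, minus strand) had the highest promoter score of any member in the GFP list, 95 (percentile 81.0), at a peak of 202 bp centred 163 bp upstream. Its SRCAP peak was 724 bp wide, scored 45 (percentile 38.5) and was centred 127 bp downstream of another TSS. From the coding TSS used for the GFP peak it was centred 144 bp downstream. The lncRNA Gm48772 starts 82 bp from Yeats4 on the other strand. Another GFP peak of score 30 (percentile 17.0) counted as promoter through a retained-intron transcript inside the gene, and the nearest SRCAP antibody peak was 6775 bp away.

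**Figure D2:**
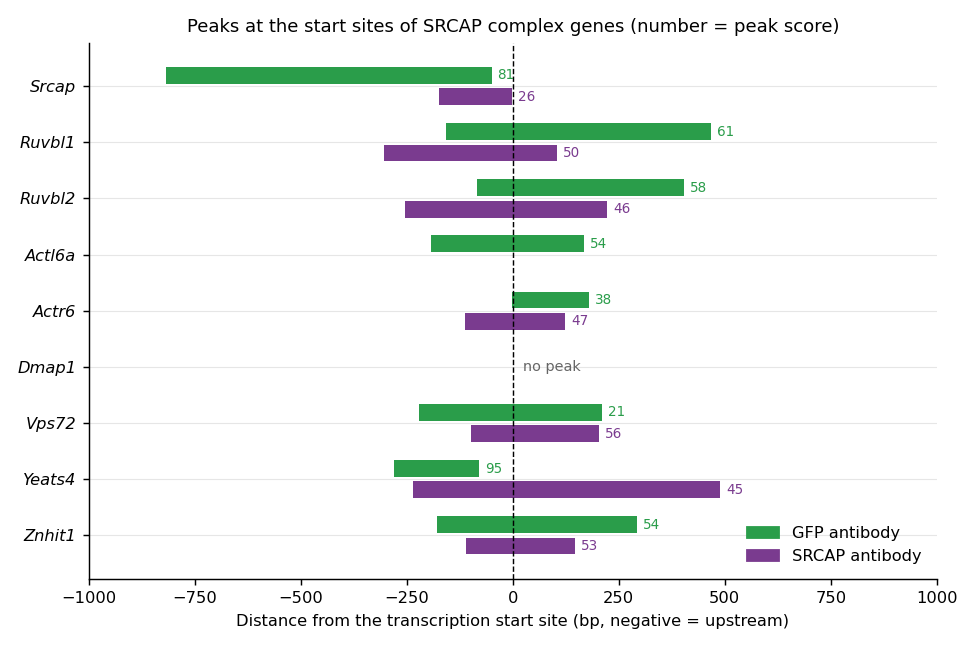
Promoter peaks of each member drawn to scale around 1 TSS per gene, the one nearest its SRCAP peak in the overlapping pair (its GFP peak at Actl6a; x axis, bp, negative upstream), with the score at the end of each bar. The SRCAP peak of score 73 at Ruvbl2 and the GFP peak of score 30 at Yeats4 lie at other TSSs outside the range drawn. GFP antibody peaks (green) and SRCAP antibody peaks (purple) overlap at 7 genes, Actl6a has a GFP peak alone, and Dmap1 has none.

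Over the members, scores were those of ordinary promoter peaks. The 9 GFP promoter peaks scored 21 to 95 with a median of 54.0, against a median of 52.0 (interquartile range 34.0 to 81.0) over the 8719 promoter peaks of that list. The 8 SRCAP promoter peaks scored 26 to 73 with a median of 48.5, against 53.0 (34.0 to 87.0) over 8776. The median percentile was 52.3 for the GFP peaks and 43.9 for the SRCAP peaks. The GFP peaks of Srcap and Yeats4 reached the upper quartile of their list, and 0 of the SRCAP antibody peaks did. Of the 7 genes with peaks of both antibodies, the highest GFP peak stood at the higher percentile at Srcap, Ruvbl1, Yeats4 and Znhit1 and the highest SRCAP peak at Ruvbl2, Actr6 and Vps72.

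**Figure D3:**
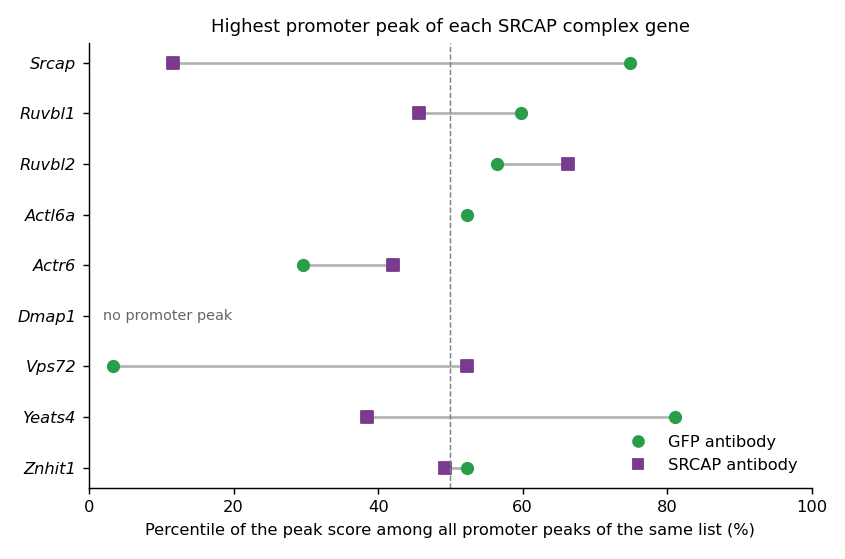
Percentile of the highest promoter peak of each member among all promoter peaks of the same list (x axis, %). The antibodies lie furthest apart at Srcap (74.8 with the GFP antibody, 11.6 with the SRCAP antibody) and Vps72 (3.38 and 52.3), and nearest at Znhit1 (52.3 and 49.2).

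The paired peaks at several members were displaced from each other. Over 5312 overlapping pairs of promoter peaks of all protein-coding genes, the midpoints lay a median of 58.0 bp apart (interquartile range 24.0 to 110). The 7 member pairs lay 39 to 346 bp apart with a median of 176 bp, and 4 of them were beyond the upper quartile of all pairs. These were Srcap at 346 bp (percentile 98.9 of all pairs), Yeats4 at 307 bp (98.0), Ruvbl1 at 254 bp (95.8) and Ruvbl2 at 176 bp (89.3). Actr6 (85 bp), Vps72 (58 bp) and Znhit1 (39 bp) lay inside the usual range. One peak was nested in the other at 2 of the 7 genes, Vps72 and Znhit1, against 50.1% of all pairs. Wide peaks leave more room for an offset, and the GFP promoter peaks of the members had a median width of 432 bp against 330 bp over all GFP promoter peaks, while those of the SRCAP antibody had 280 bp against 293 bp. The part of width in these offsets was not tested.

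**Figure D4:**
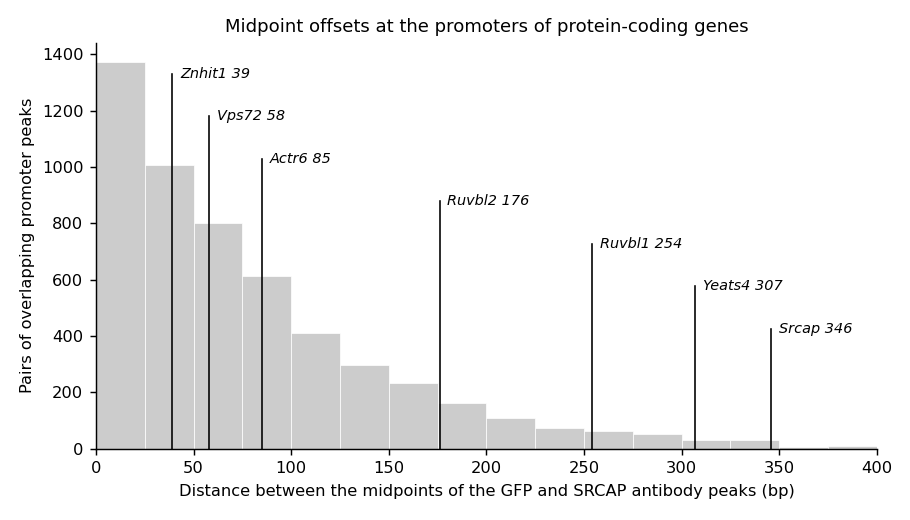
Distance between the midpoints of overlapping GFP and SRCAP antibody promoter peaks (x axis, bp), with the number of pairs in bins of 25 bp (grey) and the 7 member pairs as lines, whose height has no meaning. Of 5312 pairs 34 lie beyond 400 bp and are not drawn, and Srcap, Yeats4, Ruvbl1 and Ruvbl2 lie in the sparse right tail.

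Member promoter peaks lay near the TSS. Their midpoints had a median distance of -7.00 bp for GFP peaks (range -435 to 265) and 11.0 bp for SRCAP peaks (range -100 to 129). Over all promoter peaks these medians were -92.0 bp (interquartile range -249 to 45.5) and -66.0 bp (-199 to 33.0). The midpoint was downstream of the TSS for 4 of 9 GFP and 5 of 8 SRCAP member peaks, against 33.7% and 32.7% of all promoter peaks. Counting only TSSs of protein-coding transcripts, which leaves 8 peaks in each list, gave medians of 66.5 bp (GFP) and 11.0 bp (SRCAP), against -124 bp and -86.0 bp over all peaks at such TSSs. The latter were measured to the nearest such TSS of any gene, and those of the members to their own TSSs. The larger number of annotated TSSs at the members goes with these distances, and its part was not tested.

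The wider windows held few peaks beyond those at the start sites of the members and their neighbours. With the GFP antibody 8 of 9 genes had a peak in the gene or its 20 kb flanks, against 69.7% of all protein-coding genes, and with the SRCAP antibody all 9 did (Wilson 95% interval 70.1 to 100%), against 70.4%. The mean number of peaks per gene was 1.89 (GFP) and 2.22 (SRCAP), against 1.84 and 1.77 over all protein-coding genes, and the median was 2.00 against 1.00 for each antibody. The 17 GFP peaks (exact Poisson 95% interval 9.90 to 27.2) divided into 9 at promoters, 1 in a gene body and 7 in flanks. The 20 SRCAP peaks (12.2 to 30.9) divided into 8, 1 and 11. Counting the promoters of any gene, 14 of the 17 and 14 of the 20 lay in a promoter window, against 30.4% of the GFP list and 31.2% of the SRCAP list. The windows were placed around genes, which the list shares are not. Ruvbl2 had the most, 5 SRCAP antibody peaks, at the 94.7th percentile of protein-coding genes, of which 1 lay in the promoter of the neurotrophin gene Ntf5 without a GFP peak.

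Most of these peaks were found with both antibodies. Of the 17 GFP peaks 14 overlapped a SRCAP antibody peak (82.4%, interval 59.0 to 93.8), against 56.2% of the whole list. Most of the 17 lay in promoter windows, and the share over all GFP promoter peaks, 67.5%, lies inside the interval. Of the 20 SRCAP peaks 14 met a GFP peak (70.0%, 48.1 to 85.5), against 57.7%, which lies inside that interval. At promoters 7 of 9 GFP and 7 of 8 SRCAP member peaks overlapped, against 67.5% of all promoter peaks in each list. All 7 GFP flank peaks overlapped a SRCAP peak, and 5 of them lay in the promoter of another gene, while 7 of the 11 SRCAP flank peaks overlapped a GFP peak (63.6%, 35.4 to 84.8). Of the member-window peaks in no promoter window of any gene, 2 of 3 GFP and 2 of 6 SRCAP peaks overlapped the other list. Over the peaks of each whole list outside promoters, 51.3% (GFP) and 53.2% (SRCAP) did. The neighbours with shared flank peaks at their promoters were Phkg2 and Gm28198 beyond Srcap and Mrpl47 and Ndufb5 beyond Actl6a. The others were Pip5k1a and the pair Scnm1 and Lysmd1 beside Vps72, and Fis1 beyond Znhit1. At Fis1, a mitochondrial fission gene, the GFP peak scored 267 and the SRCAP peak 79. At the Scnm1 and Lysmd1 promoters the scores were 122 and 97. At the promoter of Pip5k1a, a lipid kinase gene, they were 17 and 81. The highest score among all 17 GFP peaks was thus at Fis1 and among all 20 SRCAP peaks at Phkg2 (192), so the strongest peaks in these windows lay at neighbours and not at the subunit genes. The other shared flank peaks lay in a coding exon of Gys1 and in intergenic sequence 5538 bp upstream of Yeats4, where the SRCAP peak scored 140 and the GFP peak 74.

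**Figure D5:**
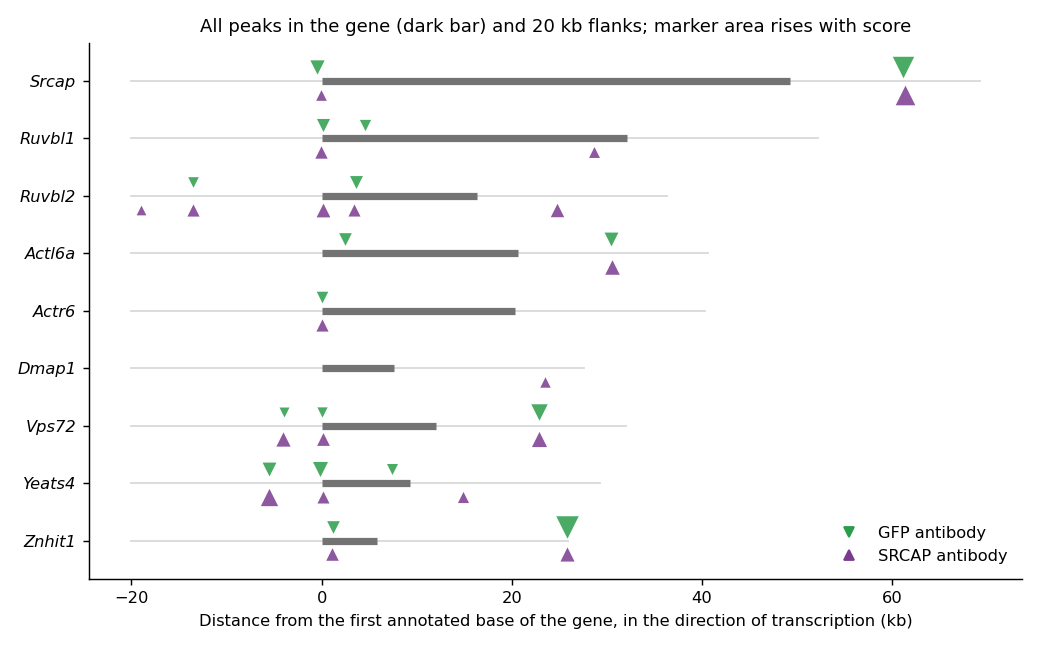
All peaks in each member (dark bar, gene body) and its 20 kb flanks (thin line), by distance from the first annotated base in the direction of transcription (x axis, kb), with marker area rising with score. The highest scores lie in flanks, at Znhit1 (267) and Srcap (238) for the GFP antibody and at Srcap (192) and Yeats4 (140) for the SRCAP antibody, and the peaks of both antibodies coincide at most places.

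Promoter sequence was examined in the 300 bp from 250 bp before to 50 bp after each gene start, taken from RefSeq on GRCm38.p6, where 8 of the 9 members matched, all but Vps72, with 10 start sites. The median member window had less GC and more CpG than the median over all promoters, with exceptions. Their median GC content was 53.5% against 57.0% over 20150 promoters, and their median CpG ratio 0.760 against 0.588. Of the 10 windows 8 had a ratio of at least 0.6, against 49.1% of all windows. Ruvbl2 (0.565) and one of the starts of Znhit1 (0.524) fell below, and Actr6 had the highest ratio, 1.08, at one of its starts. Actl6a (63.7%) and Ruvbl2 (57.3%) lay above the median GC content of all promoters. In windows of 500 bp on either side of the start the members' medians were 57.1% GC and a ratio of 0.799, and these wider windows were not computed for all promoters.

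No single word was shared by the bound members. The CCAAT box of NFY was present at Actr6, Ruvbl1, Ruvbl2 and Yeats4 (37.8% of all promoter windows), and the GC box GGGCGG at Actl6a, Ruvbl1, Ruvbl2, Srcap and Yeats4 (47.8%). The ETS word CCGGAAGT was at Actr6 and Dmap1 (5.35% of all windows), which are a gene with both peaks and the gene with neither. The NRF1 word GCATGCGC occurred at Yeats4 (3.65%), outside the stretch where its peaks overlap, and the YY1 word AAGATGGCG (1.93%) and the E box CACGTG (8.03%) at Znhit1. Ruvbl1 had the TATA box word TATAAA (12.1%). The cyclic AMP response element TGACGTCA, the CTCF core AGGGGGCGC and the ZNF143 part TCCCAGNAT occurred at 0 members, against 2.31%, 1.77% and 2.24% of all windows. The other ZNF143 part, ACTACAANT, searched on account of the Srcap sequence shown above, was found at Srcap alone and in 2.02% of all windows. Words were searched on both strands, the GC box and CTCF core can share bases, and a match is a description of the letters only.

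Promoter peaks were also counted at the genes of the partner remodellers. Of 12 genes of TIP60-p400 that are not shared with SRCAP, 8 carried a GFP antibody peak at the promoter, 7 a SRCAP antibody peak, and 6 overlapping peaks of both. Of 12 genes of INO80 the counts were 8, 8 and 7. Over all protein-coding genes the shares were 35.0% (GFP), 35.6% (SRCAP) and 25.6% (overlapping peaks of both). Among genes with a CpG-rich promoter they were 53.5%, 54.6% and 40.5%. For each antibody the Wilson interval of TIP60-p400 (GFP 39.1 to 86.2%, SRCAP 32 to 80.7%) holds that share. So does that of INO80 (39.1 to 86.2% for both). The partner genes were not counted by CpG ratio. Among the 3 genes of the H2A.Z list, H2afv, which encodes an H2A.Z protein, and the H2A.Z chaperone gene Anp32e had overlapping peaks, while H2afz, which encodes the other H2A.Z protein, had none, with the nearest peaks 2213 bp (score 56) and 2192 bp (score 31) from a TSS. Within the SRCAP complex, the 3 genes not counted in TIP60-p400 (Srcap, Actr6, Znhit1) all had overlapping peaks, as did 4 of the 6 shared with it. For each antibody the Wilson intervals of the 4 lists overlap. With only the peaks that reached the median score, the INO80 counts fell to 3 (GFP) and 4 (SRCAP), while those of TIP60-p400 were 7 and 6 and those of the SRCAP complex 6 and 5. At that score 22.2% (GFP) and 23.5% (SRCAP) of all protein-coding genes had a promoter peak.

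The lists also differed in how high their promoter peaks scored. The median percentile of the highest promoter peaks was 54.4 (GFP) and 45.7 (SRCAP) for the SRCAP complex, 80.8 and 78.8 for TIP60-p400, 35.7 and 42.0 for INO80, and 92.3 and 57.4 for the H2A.Z genes. The H2A.Z medians rest on only 2 genes, and those of the other lists on 7 or 8. Among the TIP60-p400 genes with promoter peaks in both lists, the 4 with the highest mean percentile were Morf4l2 (scores 193 with the GFP and 157 with the SRCAP antibody), Ing3, a reader of methylated H3 (163 and 126), the bromodomain gene Brd8 (165 and 80) and the ATPase gene Ep400 (71 and 142). By the same order those of INO80 were Mcrs1 (107 and 121), Tfpt (68 and 113), the actin-related gene Actr5 (52 and 68) and the ATPase gene Ino80 (35 and 48). In the H2A.Z list H2afv scored 239 and 60 and Anp32e 115 and 61. For comparison, the highest member promoter scores were 95 for the GFP and 73 for the SRCAP antibody.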

How the data were processed

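Each library has 1 list of peaks, deposited by the authors as positions with a score. The submitters' processing notes name STAR, Picard and MACS2 and the mm10 build, the same assembly as GRCm38, and the peaks were called on each library separately. For ChIP-seq and CUT&Tag, the study describes MACS2 calling of paired fragments in BAMPE mode, and its reporting summary, whose antibody list includes CUT&RUN, adds an input as control and default parameters. Whether the CUT&RUN lists were made this way, and how the deposited score was computed, is not given in the sources used here. The score was a whole number of at least 13 and was used only within a list. Calling without a matched control could list regions of high read density as peaks, at open promoters among others, and control libraries were not analysed here.

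Peaks were assigned to genes by midpoint with GENCODE vM21, and peaks overlapped when they shared at least 1 bp (checked with bedtools 2.31.1). Shares carry Wilson and peak numbers exact Poisson 95% intervals (scipy 1.17.1). Sequences came from RefSeq GRCm38.p6. Words of motifs were exact. The peak steps were tested on simulated data. All 9 members were named, as were partner genes with promoter peaks in both lists (at most 4 per list, by mean score percentile) and neighbours whose promoter window held a peak of a member's window. The members, lists and words were chosen with earlier results of these data known, and the second ZNF143 word and the CpG-rich and TSS-number backgrounds after the data were seen. Alternatives changed the window, flank, TSS set, overlap rule, score minimum, score reference and sequence window.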

Additional observations from a re-analysis of the deposited data

How the results depend on the processing

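No paired analysis was possible because there was 1 library for each antibody, and no replicate could be left out. Of 56 values recomputed under alternatives, 47 stayed within 1.5 times of a reported count or within the spread of a reported share or median, and 9 moved. The spread was the Wilson interval of a share or the standard deviation of the member values. These limits were wide, so a share that fell from 82.4% to 64.7% counted as unchanged. Member counts among genes with 2 or more TSSs were fixed in advance, because all 9 members have at least 2. Those among CpG-rich genes were out of 7 members. Keeping only peaks that reached the list's median score (47 in both) left 2 members with overlapping promoter peaks, Ruvbl1 and Znhit1, against 15.6% of all protein-coding genes, 11 GFP and 13 SRCAP antibody peaks in the member windows, and 3 (GFP) and 4 (SRCAP) INO80 genes with a promoter peak. At the other 5 members with overlapping peaks, 1 of the pair scored below the median. Flanks of 5 kb held 11 GFP and 10 SRCAP antibody peaks and flanks of 50 kb held 38 and 34, which follows from the length searched. The counts of members with a promoter peak stayed at 8 (GFP) and 7 (SRCAP) with a window of 2500 bp either side, with coding TSSs only and with overlap in place of the midpoint, and were 6 and 5 at or above the median score, against 22.2% and 23.5% of all protein-coding genes. With a reciprocal overlap of 50% or more, the overlapping share of member peaks was 64.7% (GFP) and 55.0% (SRCAP), against 42.5% and 43.3% of the whole lists. For this rule the share over promoter peaks alone was not computed. The lists give no depth, so binding too weak to be listed, as at Dmap1, was not measurable.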
